A study of Rattus norvegicus with 24 samples.

Results

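The cytosolic ribosomal protein genes are those that encode the protein part of the large (60S) and small (40S) subunits of the ribosome in the cytosol. Every probe whose RefSeq accession belongs to a gene with a symbol that begins with Rpl or Rps and a digit was taken, S6 kinases left out, together with Rplp0, Rplp1, Rplp2 and Rpsa where they had a probe. The rule found 26 probes of the 33911 on the array, for 25 of the 4012 genes that could be named. They comprised 12 genes of the large subunit (Rpl3, Rpl4, Rpl6, Rpl10, Rpl10a, Rpl15, Rpl18, Rpl19, Rpl21, Rpl22, Rpl29 and Rplp0) and 13 of the small subunit, among them Rps3a, Rps6, Rps10, Rps15, Rps23, Rps26, Rps27, Rps27a, Rps29 and Rpsa, the last with 2 probes. Other ribosomal protein genes, Rplp1 and Rplp2 among them, were not analysed here.

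The samples were whole retinas of male Sprague Dawley rats. Diabetic rats had received an intraperitoneal injection of streptozotocin (STZ), a toxin of pancreatic beta cells, and no insulin, and control rats had received the citrate vehicle. The retinas were taken 1 or 3 months later, which gave 4 groups of 6 arrays, numbered 1 to 6 in the labels and called rats by that number here. The labels do not name the animals, and the study lists fewer animals than arrays for the 1 month controls, so that p-values measure the spread between arrays. The rats of each time point were raised and killed as a separate set. Total RNA was amplified into biotin-labelled cRNA from its poly(A) fraction and hybridised to CodeLink rat whole genome arrays, which carry short oligonucleotide probes. In whole-retina RNA, a change in the number of cells of a type and a change in RNA per cell cannot be told apart.

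Ribosomes translate messenger RNA into protein, and each one contains a single copy of nearly all of its proteins, so that cells make these proteins in matched amounts. Their messenger RNAs are among the most abundant of a cell. Most of them begin with a C followed by an unbroken run of pyrimidines, the 5′ terminal oligopyrimidine tract, through which the mTOR pathway, downstream of insulin and amino acids, sets how much of the RNA is translated. That control acts on translation, which an array of RNA levels does not measure.

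The start sites of the genes are shown because this shared feature was not used to choose them. RefSeq (assembly GRCr8) gave 21 promoters for 20 of the 25 genes, Rps27a having 2, and none was listed in that table for Rps29 and Rpl15, among others. The following 50 bases run from 30 before to 20 after the annotated start, 5′ to 3′, and capitals mark the longest unbroken stretch of C or T that touches the 5 bases on either side of it. Rps23, Rpl4 and Rpl22 were called on a scale other than the median-scaled one, and Rplp0 and Rpl19 are often used as reference genes. Rps6 is one with no such tract at its annotated start, although its window holds a longer run of C and T further upstream, outside the bases searched.
Rps23: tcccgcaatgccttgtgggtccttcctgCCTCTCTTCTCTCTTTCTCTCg
Rpl4: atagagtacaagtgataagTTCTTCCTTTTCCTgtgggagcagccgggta
Rpl22: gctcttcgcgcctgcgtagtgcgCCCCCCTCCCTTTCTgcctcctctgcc
Rplp0: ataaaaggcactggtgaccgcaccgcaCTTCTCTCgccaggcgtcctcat
Rpl19: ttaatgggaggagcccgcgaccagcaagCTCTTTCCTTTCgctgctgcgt
Rps6: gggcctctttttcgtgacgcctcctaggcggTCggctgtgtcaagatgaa

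In GRCr8 the window of Rps23 lay at chr2:23814487-23814536 and that of Rpl4 at chr8:73566447-73566496, both on the plus strand. Those of Rpl22 (chr5:168117931-168117980) and Rpl19 (chr10:83519034-83519083) were also on the plus strand. Those of Rplp0 (chr12:46718371-46718420) and Rps6 (chr5:106420521-106420570) were on the minus strand. Each window spans the boundary between the promoter and the first exon. A stretch of at least 5 bases of C or T touched the start in 15 of the 21 promoters (71.4%) and in 29.3% of the 33469 promoters of the table. Its median length was 9 bases in the ribosomal protein promoters and 3 bases in all. It was 21 bases long at Rps23, 18 at Rpl29, 15 at Rpl22, 14 at Rpl4, 12 at Rpl19 and 8 at Rplp0. The letters CTTTC, sought on either strand of the same window, where they can overlap that stretch, were present in 11 of the 21 (52.4%) and in 12.4% of all. These matches describe the annotated starts and were not related to the array values.

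Levels are given as log2 of the background-subtracted intensity after division by the median of the rat probes on the same array, so that 0 is the array median. Ranks are percentiles among the 33849 rat probes of an array, 100 being the brightest. Of these, 22025 probes were bright enough to be tested, among them all 26 ribosomal probes. The array median itself was 124 to 360 intensity units at 1 month in controls and 156 to 303 in STZ rats, and 149 to 308 in controls and 125 to 164 in STZ rats at 3 months. The interquartile range of the log2 values was 3.36 to 3.67 and 3.40 to 3.66 in the 1 month groups, against 1.48 to 2.23 in 3 month control and 2.07 to 2.70 in 3 month STZ rats. In 3 month control rat 2 the log2 values correlated least with those of the rest of the group (median 0.842), and results that rest on this array are given without it as well.

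The ribosomal probes were among the brightest on every array. When the 22025 tested probes were divided into deciles by mean level, from 1 (dimmest) to 10 (brightest), 23 of the 26 fell in decile 10, and the others were Rpl4 in decile 9, Rpl19 in decile 8 and Rps23 in decile 6. The median percentile rank of the 26 probes lay between 97.7 and 99.3 on all 24 arrays. On the log2 scale their median was 4.72 to 4.96 in 1 month control, 4.62 to 4.92 in 1 month STZ, 3.17 to 4.51 in 3 month control and 4.32 to 5.04 in 3 month STZ rats. Thus the 3 month control group had the lowest levels and the widest spread on the log2 scale, with an SD of 0.44 over its arrays against 0.09 in 1 month control, while its ranks were at 97.7 to 98.8. A probe's brightness also depends on its sequence, so that ranks order the probes and not the amounts of RNA of different genes.

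**Figure D1:**
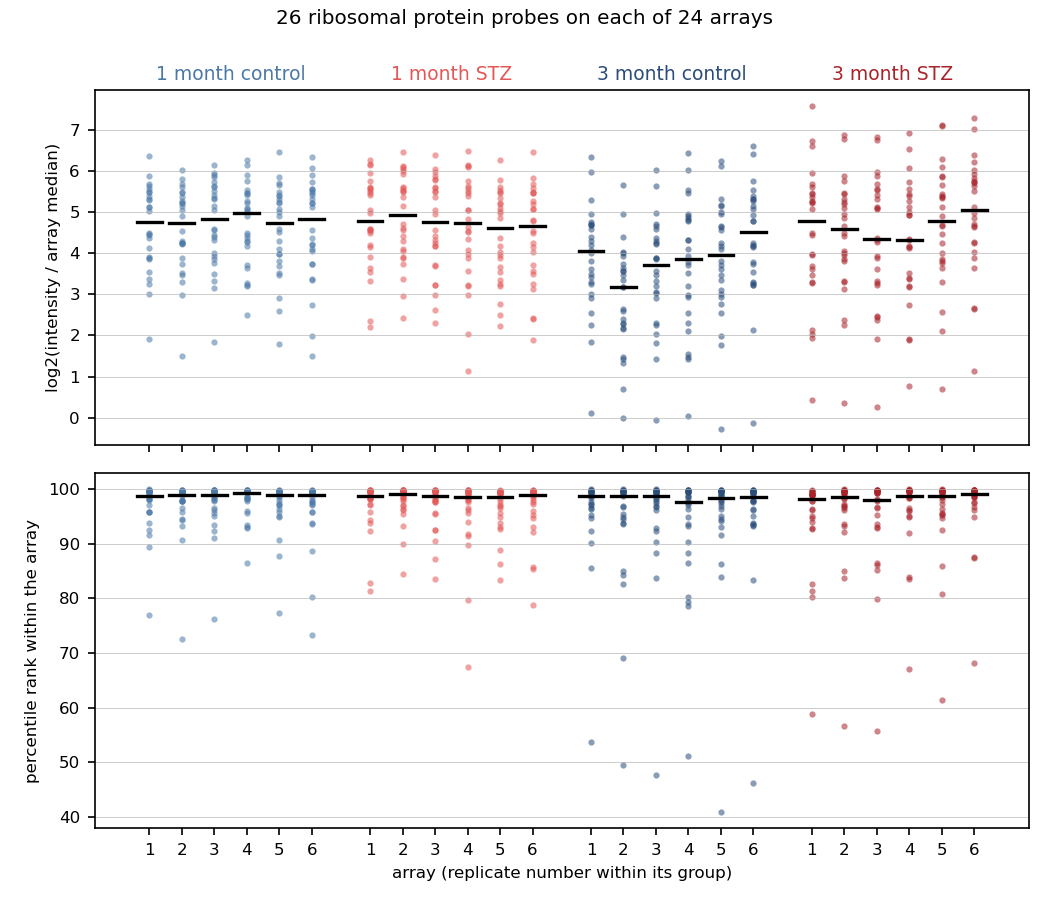
The 26 ribosomal protein probes on each of the 24 arrays, as log2 of intensity over the array median (top) and as percentile rank within the array (bottom); points are probes and the black line is their median on that array. The medians drop to between 3.17 and 4.51 in 3 month control rats in the top panel, whereas in the bottom panel they stay between 97.7 and 99.3 on every array, and the lowest point on the 3 month arrays is Rps23.

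After 3 months of diabetes, 23 of the 26 ribosomal probes were higher in STZ than in control retinas on the median-scaled log2 scale and none was lower (adjusted p under 0.05 and at least 1.2-fold), a direction that flipped, with 1 higher, 9 lower and a median of -0.57, when the spread of the log2 values of each array was scaled as well, where 36.2% of all tested probes were called. The median difference was 0.81, and the 26 differences ranged from 0.35 to 1.19. Over all tested probes 54.1% were called, 50.5% as higher and 3.55% as lower, with a median difference of 0.44. Among the 2203 probes of the brightest decile, 81.6% were called, all of them higher, with a median of 0.63. The share of ribosomal probes called, 88.5%, was thus near that of other bright probes.

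The large subunit contributed 10 called probes of 12, with a median difference of 0.81. Rpl4, which lines the tunnel through which the new protein leaves the ribosome, lay at 1.42 to 3.27 with a median of 2.28 in 3 month control rats and at 3.18 to 3.64 with a median of 3.61 in 3 month STZ rats. The lowest STZ rat overlapped with the highest control rat and the others lay above all controls. The difference was 1.19 ± 0.23 (SE, n = 6 per group), or 2.28-fold, the largest of the 26, with an adjusted p of 0.0005. Rpl22, an RNA-binding protein of the large subunit, lay at 2.59 to 4.18 (median 3.35) in control and at 4.26 to 4.66 (median 4.44) in STZ rats, without overlap, and differed by 1.11 ± 0.18 (adjusted p 0.00016). Rplp0, the base of the stalk that recruits elongation factors, lay at 3.18 to 5.14 (median 4.34) in control and at 4.92 to 5.74 (median 5.21) in STZ rats, with some overlap, and differed by 0.93 ± 0.20 (adjusted p 0.00099).

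Other members of the large subunit showed smaller differences. Rpl29 differed by 0.81 ± 0.18 (adjusted p 0.0013) and Rpl18 by 0.74 ± 0.20 (adjusted p 0.0041). Rpl15, which is embedded in the ribosomal RNA, differed by 0.62 ± 0.19 (adjusted p 0.01), and its levels of 3.17 to 4.24 in control and 3.93 to 5.11 in STZ rats overlapped. Rpl10a, the protein of the L1 stalk where spent transfer RNA leaves, differed by 0.49 ± 0.20 (adjusted p 0.039), a call that was lost when any of 6 arrays was left out, with a difference of 0.32 without 3 month control rat 2.

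Rpl19 and Rpl6 did not pass the test. Rpl19, which forms a contact between the subunits and is used as a reference gene, lay at 1.43 to 2.13 (median 1.83) in control and at 1.90 to 2.66 (median 2.01) in STZ rats and differed by 0.35 ± 0.19 (adjusted p 0.13). Rpl6 differed by 0.68 ± 0.74 (adjusted p 0.44), and single arrays set its value. It lay at 7.57 on the array of STZ rat 1 and between 1.89 and 2.64 on the other 5, and in controls it lay at 4.68 in rat 1 and 5.30 in rat 6 and between 0.69 and 1.77 in the other 4. Without STZ rat 1 its difference was -0.19.

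The small subunit contributed 13 called probes of 14, with a median difference of 0.86. Rps6, the substrate of the S6 kinases of the mTOR pathway, lay at 3.47 to 4.77 (median 4.19) in control and at 4.85 to 5.52 (median 5.16) in STZ rats, a difference of 1.05 ± 0.19 (adjusted p 0.00025). Rps3a, an early-assembling protein at the platform of the small subunit, differed by 0.97 ± 0.21 (adjusted p 0.00098). All 6 STZ rats lay above all 6 controls for both genes.

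Rps27a, which is made as a fusion with ubiquitin, lay at 4.94 to 6.40 (median 5.99) in control and at 6.52 to 7.09 (median 6.76) in STZ rats and differed by 0.94 ± 0.17 (adjusted p 0.00036). Rps29, a small zinc-binding protein and the brightest of the 26 probes on average, lay at 5.65 to 6.60 (median 6.28) in control and at 6.72 to 7.27 (median 6.88) in STZ rats and differed by 0.74 ± 0.14 (adjusted p 0.0005). For both genes the groups did not overlap.

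Rps23, part of the decoding centre and the dimmest member, lay at -0.27 to 0.11 (median -0.04) in control and at 0.26 to 1.13 (median 0.57) in STZ rats and differed by 0.67 ± 0.20 (adjusted p 0.0083). Every STZ rat lay above every control. The 2 probes for Rpsa, which is also known as a laminin receptor, carry the same accession. The brighter one differed by 0.54 ± 0.29 and did not pass (adjusted p 0.12), though it did without STZ rat 1 (0.80) or rat 3 (0.73), and was at 0.28 without STZ rat 6, and the other differed by 0.68 ± 0.28 and passed (adjusted p 0.043). On the brighter probe the STZ rats spread from 2.03 to 4.65, wider than the controls at 2.11 to 3.24.

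For 11 of the 26 probes (42.3%) all STZ arrays lay above all control arrays at 3 months on this scale. The share was 9.49% of all tested probes and 8.26% of the brightest decile. Of the 11, 10 were for the small subunit and the only one for the large subunit was Rpl22. Without 3 month control rat 2 the median difference of the 26 probes was 0.67 and 20 were called.

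The array medians entered each of these values. At 3 months the mean log2 array median of STZ rats minus that of control rats was -0.62, and division by the median removes this amount from each probe. Without any scaling, the same probes differed by a median of 0.20, with a range from -0.27 (Rpl19) to 0.57 (Rpl4), and none of the 26 was called, with none at an unadjusted p under 0.05 either (4494 of all 22025 tested probes), whereas 4.4% of all tested probes were called, 4.06% as lower. Rpl4 alone had all its unscaled STZ values, 1459 to 1989 units, above all control values, 801 to 1433 units, as did 0.899% of all tested probes. The median over all tested probes was then -0.17 and that of the brightest decile 0.01. The array median intensity of the 26 probes was 2528 to 4043 units in 3 month control and 2762 to 4737 units in 3 month STZ rats, which overlapped. Divided by the array median, it was 9.03 to 23.1 times the median in control and 19.9 to 32.8 times in STZ rats. As a share of the summed intensity of each array, the 26 probes held 0.506% to 0.754% in 3 month control and 0.775% to 1.06% in 3 month STZ rats, without overlap, and 0.745% to 0.857% and 0.704% to 0.897% in the 1 month control and STZ groups. The lowest 3 month STZ share, 0.775%, was that of rat 1. On that array Rpl6 lay at 7.57 on the median-scaled log2 scale, where the other arrays of the group reached 2.64. Shares without Rpl6 were not calculated, so the lack of overlap may rest on this probe.

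**Figure D2:**
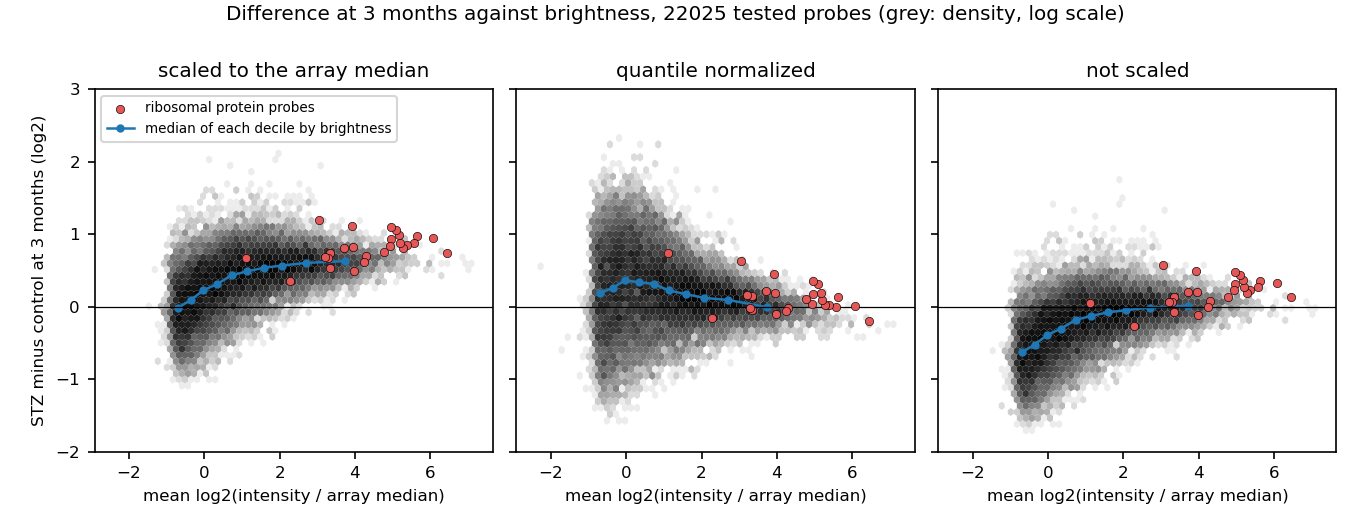
STZ minus control at 3 months (log2, y axis) against mean log2 of intensity over the array median (x axis) for the 22025 tested probes (grey density), with the 26 ribosomal probes in red and the median of each decile by brightness in blue, after median scaling, after quantile normalization and without scaling. After median scaling the blue line climbs from -0.02 in the dimmest decile to 0.63 in the brightest, where 23 of the red points lie, and it ends near 0 in the other panels.

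The median-scaled difference at 3 months followed brightness over the whole array. The median was -0.02 in the dimmest decile of tested probes, 0.43 in decile 5, 0.57 in decile 8 and 0.63 in the brightest. Quantile normalization, which gives all arrays the same distribution of values, turned this course around, with a median of 0.18 in the dimmest decile, 0.36 in decile 3 and -0.01 in the brightest. The median of the 26 ribosomal probes was then 0.10. Of the 26, 4 were called, all higher, where 31.6% of all tested probes and 6.95% of the brightest decile were called. Among the 4 were Rpl4 (0.63 ± 0.18, adjusted p 0.0085), Rpl22 (0.45 ± 0.13, adjusted p 0.0097) and Rps23 (0.73 ± 0.21, adjusted p 0.0082). Rpl4 and Rps23 lie outside the brightest decile. Rps29 was at -0.19 and Rpl19 at -0.16 on this scale, and neither passed the test.

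**Figure D3:**
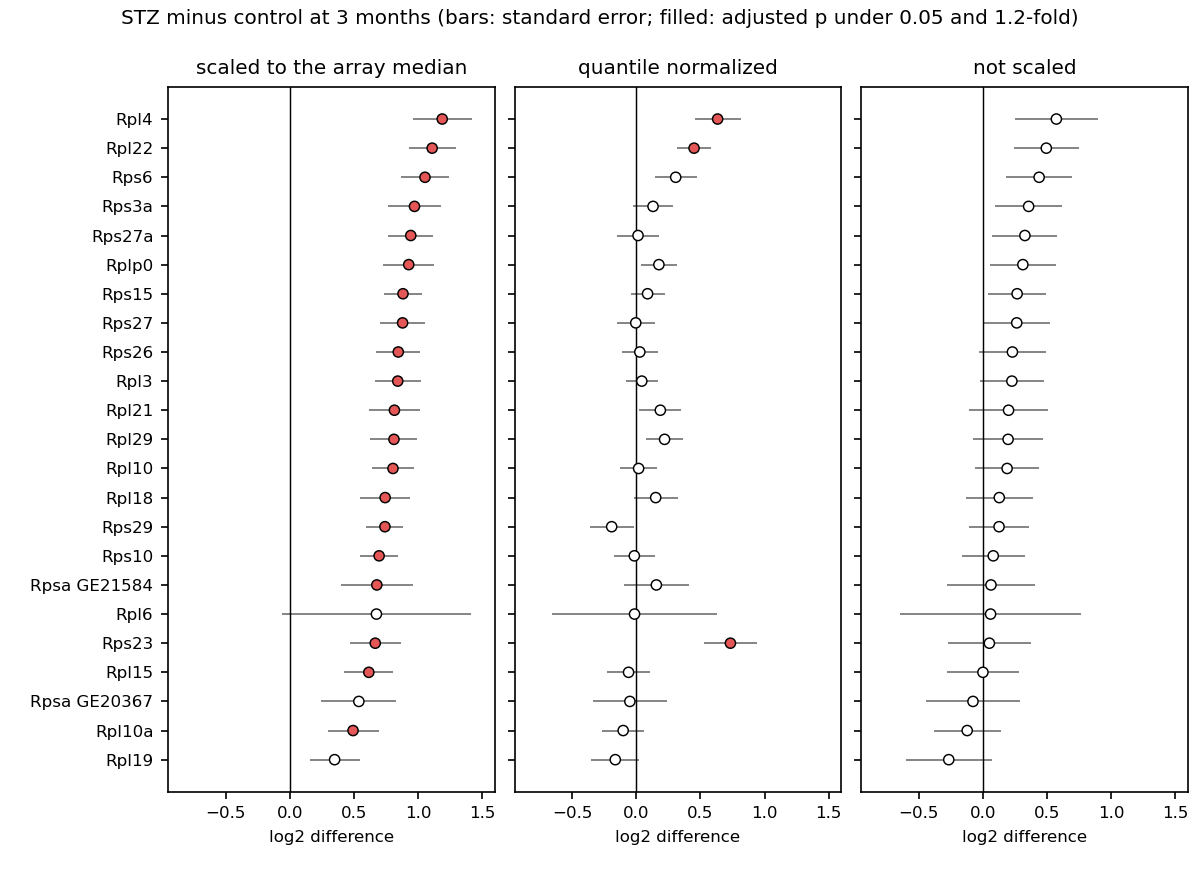
STZ minus control at 3 months for each of the 23 ribosomal probes of the genes named here (log2 difference with its standard error, 6 arrays per group) after median scaling, after quantile normalization and without scaling; filled points passed adjusted p under 0.05 and 1.2-fold. Of the 23 points, 20 are filled in the first panel, 3 in the second (Rpl4, Rpl22 and Rps23) and none in the third.

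The within-array ranks gave a similar count. At 3 months the median rank difference of the 26 probes was 0.07 percentile points, 17 were positive and 9 negative, and 2 were called, both higher. By rank 30.7% of all tested probes were called, but 2.09% of those in the brightest decile. Rps23 stood at percentile 40.9 to 53.7 (median 48.6) in control and at 55.7 to 68.2 (median 60.1) in STZ rats, a difference of 13.1 ± 3.07 points (adjusted p 0.0028), and all STZ arrays lay above all controls, as for 6.86% of all tested probes. Rpl4 stood at 84.3 to 93.6 (median 90.2) in control and at 93.3 to 95.2 (median 94.8) in STZ rats, a difference of 4.92 ± 1.55 points (adjusted p 0.019). Neither lies in the brightest decile. In decile 6, which holds Rps23, the median rank difference was 3.79 points and 28.7% of the probes were called. In decile 9, which holds Rpl4, these values were 0.97 points and 7.63%. Without scaling, Rps23 stood at 135 to 296 units in control and at 164 to 316 units in STZ rats, which overlapped.

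Close to the top of the array a rank has little room to move, and places counted from the brightest probe give a finer view. Rpl22 moved from place 738 to 1749 (median 997.5) in 3 month control to place 394 to 731 (median 551.5) in STZ rats, and the groups did not overlap, although its percentile difference of 1.48 ± 0.67 did not pass (adjusted p 0.101). Rps6 stood at place 238 to 400 in control and 133 to 375 in STZ rats, with overlap. Rplp0 stood at place 149 to 396 in control and 105 to 355 in STZ rats. Rps29 stood at place 14 to 24 in control and at 16 to 114 in STZ rats, the last being rat 1, and its median place was 17 in control and 17.5 in STZ rats. Rps27a stood at place 27 to 37 in control and 19 to 129 in STZ rats. On the array of STZ rat 1, 21 of the 26 ribosomal probes had the lowest rank of their group, and without it the median rank difference was 0.17 points, with 2 probes called. The normal scores of the ranks, which stretch both ends of the scale, called 4 of the 26 higher, Rpl4, Rpl22 and Rps23 among them. On that scale 31.3% of all tested probes and 7.99% of the brightest decile were called.

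**Figure D4:**
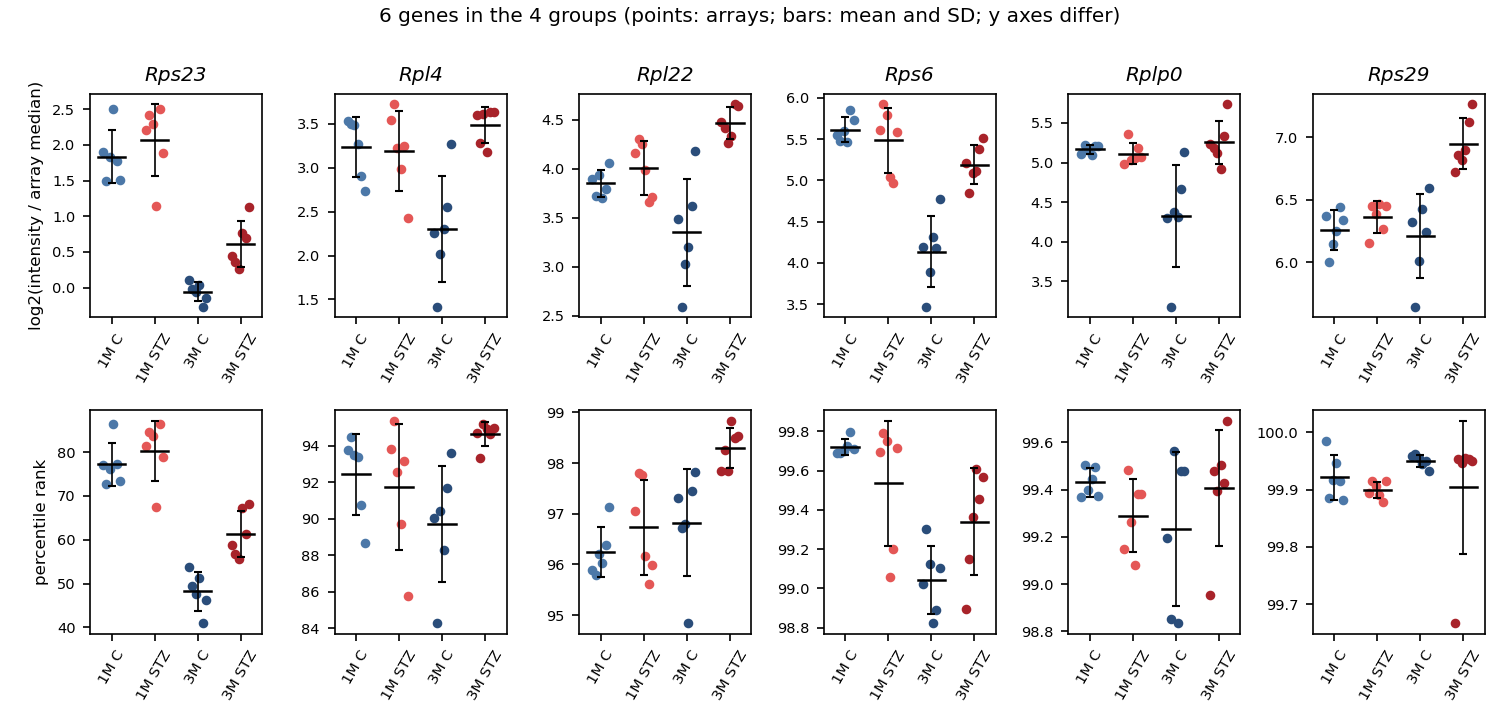
Log2 of intensity over the array median (top) and percentile rank (bottom) of 6 genes in the 4 groups; points are the 6 arrays of a group, and bars give the mean and SD. The 3 month control and STZ points of Rps23 stay apart in both rows, those of Rps29 (5.65 to 6.60 and 6.72 to 7.27) are apart in the top row and overlap in the bottom row, and those of Rpl4 and Rplp0 overlap in both.

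One month after STZ none of the 26 probes was called on the median-scaled scale by limma, and none had an unadjusted p under 0.05. None was called by rank, after quantile normalization or without scaling, where 0%, 0% and 0% of all tested probes were called, and at an unadjusted p under 0.05 these counts were 0, 1 and 0, against 651, 641 and 1320 of all 22025 tested probes. Over all tested probes 2 (0.00908%) were called, and 927 had an unadjusted p under 0.05. The median difference of the ribosomal probes was 0.05 and their range -0.41 to 0.45, with 14 positive and 12 negative. This balance moved with the scale, to 10 positive and 16 negative by rank, 9 and 17 after quantile normalization and 1 and 25 without scaling, where the median was -0.23 and that of all tested probes -0.27. Rps23 (0.24 ± 0.20) and Rps3a (0.19 ± 0.21) were among the highest. Apart from the dimmer Rpsa probe, which is given below, Rpl19 was the lowest. It lay at 1.99 to 3.20 (median 3.00) in control and 2.03 to 2.96 (median 2.37) in STZ rats, a difference of -0.39 ± 0.19. Rpl18 (-0.22 ± 0.20) and Rpl10a (-0.16 ± 0.20) followed. Single arrays moved these small values. Without 1 month control rat 5, Rpl18 was at -0.095, Rpl10a at -0.038 and Rps3a at 0.12, and Rps23 ranged from 0.15 to 0.42 with an array left out. The dimmer Rpsa probe was at -0.41 ± 0.28. Rplp0 at 5.09 to 5.22 in control and 4.98 to 5.35 in STZ rats, and Rps29 at 6.01 to 6.44 and 6.16 to 6.47, overlapped between the groups.

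The test of whether the STZ effect differed between the time points called 15 of the 26 probes on the median-scaled scale, all with the more positive value at 3 months, against 15.5% of all tested probes. The direction turned when the spread of each array was scaled as well, with 22 of the 26 negative, a median of -0.57 and 1 call, which was lower, where 11.1% of all tested probes were called. The median of this difference of differences was 0.78 for the ribosomal probes, 0.44 for all tested probes and 0.58 for the brightest decile, of which 14.6% were called. The largest were those of Rpl4 (1.24 ± 0.33, adjusted p 0.026) and Rps6 (1.18 ± 0.26, adjusted p 0.016). Single arrays moved this count. It was 2 without 3 month STZ rat 6, 5 without 3 month STZ rat 5, 3 without 3 month control rat 3, 9 without 3 month control rat 1 and 22 without 3 month control rat 6. By rank, after quantile normalization and without scaling it was 0, where 10.8%, 10.9% and 0.00908% of all tested probes were called. At an unadjusted p under 0.05 these counts were 2, 2 and 1, against 5794, 5864 and 1108 of all 22025 tested probes.

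The 3 month control rats also differed from the 1 month control rats. On the median-scaled scale 21 of the 26 probes were lower at 3 months and none was higher, with a median of -0.87, which turned to 23 higher and 1 lower with a median of 2.35 when the spread of each array was scaled as well (71.1% of all tested probes called), and to no call with a median of 0.63 when the spread was a covariate. On the median-scaled scale 68.8% of all tested probes were called, 55.6% as lower, and the brightest decile had a median of -0.64. Without scaling 19 of the 26 were called, all lower, with a median of -0.97, where 57% of all tested probes were called. This comparison shares its 3 month controls with that of diabetes at 3 months. Age and the separately raised sets of rats cannot be told apart. Rps23 differed by -1.89 ± 0.20 (adjusted p 7.0e-09), from 1.50 to 2.50 at 1 month to -0.27 to 0.11 at 3 months. Rpl29 (-1.58 ± 0.18), Rps6 (-1.48 ± 0.19) and Rpl10a (-1.47 ± 0.20) were lower too. Rps29 (-0.05 ± 0.14), Rps27a (0.06 ± 0.17), Rps27 (-0.22 ± 0.17) and Rpl6 (-1.18 ± 0.74) were among the 5 that did not pass.

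By rank, 5 of the 26 probes were called between the control groups, all lower at 3 months, where 58.1% of all tested probes were called and 26.6% of the brightest decile. Rps23 went from percentile 72.6 to 86.5 at 1 month to 40.9 to 53.7 at 3 months, a difference of -29.0 ± 3.07 points (adjusted p 5.6e-08). Rpl29 differed by -4.62 ± 0.83 points, Rpl10a by -2.77 ± 0.84, the dimmer Rpsa probe by -8.03 ± 2.38 and Rpl6 by -8.95 ± 3.83, the last with an adjusted p of 0.0499 that moved past 0.05 in 20 of the 24 fits with an array left out. Without 3 month control rat 2 the difference of Rpl6 was -5.56 points. Rps27a and Rps27 stood higher on all 3 month control arrays than on all 1 month control arrays by rank, as did 11.2% of all tested probes, at place 27 to 37 against 51 to 96 for Rps27a, though neither difference passed the test. After quantile normalization both were called higher at 3 months (0.50 ± 0.16 and 0.41 ± 0.15), with 7 other ribosomal probes called lower and 60.2% of all tested probes called.

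Genes that act with the ribosome were counted in the same fit at 3 months on the median-scaled scale, where 50.5% of all tested probes were called higher with a median over all of 0.44. Of 10 initiation factor genes tested, 7 were called higher and none lower, with a median of 0.65, among them Eif2b2, of the factor that recharges eIF2 (0.82 ± 0.18), Eif4a1, the helicase that unwinds the 5′ end of messenger RNA (0.62 ± 0.18), and Pabpc1, the poly(A) binding protein (0.69 ± 0.17). Of 3 elongation and termination genes, Eef2, which moves the ribosome along, was called (0.64 ± 0.19). Rack1, a scaffold on the 40S subunit, was called at 0.68 ± 0.22. Of 11 ribosome biogenesis genes 5 were called higher (median 0.46), such as Nop58, of the small nucleolar ribonucleoproteins (0.60 ± 0.21). All 3 mitochondrial ribosomal protein genes were called higher (median 0.51) and 15 of 21 respiratory chain genes (median 0.63).

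Of the 13 genes that control translation, 8 were called higher and 1 lower. Eif4ebp1, a repressor of cap-dependent initiation that mTOR inactivates, was at 1.09 ± 0.25, and Eif2ak2, the double-stranded RNA activated kinase of eIF2, at 1.15 ± 0.19. Rps6ka1, a kinase downstream of ERK, was lower at -0.76 ± 0.19. By rank only these 3 of the list were called, where 30.7% of all tested probes were called. Of the other lists by rank, initiation, mitochondrial ribosomal protein genes and Rack1 had no call, and elongation, biogenesis and the respiratory chain had 1 lower call each. Quantile normalization gave the same counts as ranks for each of these lists, where 31.6% of all tested probes were called. None of these lists had a call at 1 month.

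Markers of cell types were counted on the same scale, against the same 50.5% of all tested probes called higher. All 6 genes of reactive Mueller glia, Gfap and Vim among them, were called higher, with a median of 1.42. Their summed level was 17.1 to 42.3 times the array median (median 30.6) in control and 66.6 to 364 times (median 86.2) in STZ rats. Of 5 lens genes 4 were called higher (median 2.20), with summed levels of 64.7 to 115 (median 85.5) and 140 to 332 (median 241). The rod genes Sag, Prph2 and Pdc, which mark the retina, had mean log2 levels of 7.05, 6.76 and 6.44 over the 24 arrays. Of 7 rod genes 3 were called higher (median 0.30), of 6 microglia and leukocyte genes 3 higher and 1 lower (median 0.51), of 4 ganglion cell genes 2 higher (median 0.49) and of 5 resting Mueller glia genes 2 higher (median 0.35). The single endothelial gene, Kdr, was called higher. After quantile normalization 24.6% of all tested probes were called higher and 6.99% lower. On that scale reactive Mueller glia had 6 higher calls and lens genes 3, while 2 rod genes were called lower and none higher (median -0.35). No resting Mueller glia (median -0.43), ganglion cell or endothelial gene was called. The 2 erythrocyte and 2 retinal pigment epithelium genes tested had no call on either scale. The summed level of the retinal pigment epithelium list was 2.43 to 12.9 times the array median in 3 month control rats. It was 2.32 to 97.2 times (median 3.53) in 3 month STZ rats, so a single array could stand high without a call. The part of these cell types in the ribosomal protein values was not tested. Ribosomal proteins have many near-identical processed pseudogenes in the rat genome, and signal from such copies cannot be told apart from that of the genes.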

How the data were processed

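Total RNA of 24 retinal samples (4 groups of 6) was hybridised to CodeLink arrays. The authors subtracted background and exported values with CodeLink Expression Analysis software; the deposited files hold background-subtracted intensity and the authors' normalised signal for 33911 probes, the latter identical to the series table within 1e-06 (3 values were missing and 62 bacterial probes were left out). Intensities below 0.01 of the array median were set to 0.01 and log2 was taken; probes with a median scaled intensity above the 35th percentile (0.554) and at least 4 values per group were tested (22025). Differences were fitted with limma 3.58.1 (R 4.3.3) in 1 model of 4 groups over 24 arrays, Benjamini-Hochberg adjusted over all tested probes; calls needed adjusted p under 0.05 and 1.2-fold (ranks: adjusted p alone). The fit was tested on simulated data. RefSeq accessions named 4014 of 4798. Each array was taken as a replicate, and 6 arrays per group limit the precision. The genes to be named were the 6 highest and 6 lowest at 3 months, the 4 largest rises and falls in rank, the 3 highest and lowest at 1 month, the 2 brightest and dimmest, up to 5 called by rank per comparison, and reference genes; other lists were counted. Of the members, 3 enter the counts, medians and ranges and are not reported here singly. Members, lists and tests were chosen with earlier results of these data known. Alternatives were quantile, 75th percentile, spread and no scaling, background, filter, floor, array weights, blocking, the methods' test and leaving out each array.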

Additional observations from a re-analysis of the deposited data

Results flagged for a closer look

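For 15 of the 26 ribosomal probes the test of the difference itself found that the median-scaled STZ effect was more positive at 3 months than at 1 month, beside 15.5% of all tested probes and 14.6% of the brightest decile called in this test. The count was 2 without 3 month STZ rat 6, and with the spread of each array scaled the direction turned, with 22 of the 26 negative and 1 lower call. Among them the difference of the log2 effects was 1.24 for Rpl4, 1.18 for Rps6, 0.98 for Rplp0, 0.98 for Rpl3, 0.97 for Rpl18, 0.95 for Rpl22, 0.89 for Rpl21, 0.83 for Rps27a, 0.77 for Rpl10, 0.76 for Rps15, 0.75 for Rps27, 0.74 for Rps26, 0.64 for Rps29 and 0.63 for Rps10. Beside these, the array median of the STZ rats relative to that of controls was -0.62 at 3 months and -0.28 at 1 month on the log2 scale, and none of the 15 was called by rank or without scaling.

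Single arrays lay far from the other 5 of their group in 10 of 104 sets of 6 values, where chance alone gives about 1 in 20. Array 5 of the 1 month controls was such an array for several probes, with Rps10 (4.90), Rpl10a (5.23) and Rpl18 (4.09) among them. Rpl6 was high at 7.57 in 3 month STZ rat 1, where the others reached 2.64, and at 5.03 in 1 month control rat 4, where the others reached 3.85. Rps26 was high at 5.73 in 1 month control rat 3. Rpl21 was low at 2.41 in 3 month control rat 2 and the dimmer Rpsa probe at 2.75 in 1 month STZ rat 5.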

How the results depend on the processing

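The 23 ribosomal probes called at 3 months, all higher, became 4 (all higher) after quantile normalization, 13 (all higher) with 75th percentile scaling, 10 (1 higher, 9 lower) when the spread of each array was scaled, and 0 with the array spread as a covariate and 0 without scaling, an alternative added after seeing the data. The methods' test gave 15 at its own threshold and 10 after Benjamini-Hochberg adjustment, all higher. The median log2 difference of 0.81 became 0.10, 0.40, -0.57, 0.33 and 0.20 under the first 5 of these, and the 1 month median became -0.23 without scaling. The interaction count of 15 became 0, 0, 1 (lower), 0 and 0, and 6 when the 5th percentile of each array was subtracted. Between the control groups the 21 calls became 9 (2 higher, 7 lower), 12 (3 higher, 9 lower), 24 (23 higher, 1 lower) and 0 under quantile, 75th percentile and spread scaling and the covariate, 12 (2 higher, 10 lower) with the 5th percentile subtracted and 13 with the methods' test; their median of -0.87 became -0.22, -0.30, 2.35 and 0.63, and -0.39. By rank, the 2 calls at 3 months became 4 with normal scores and 1 when ranks were taken among tested probes, the 0 interaction calls became 1 with array weights, and the 5 calls between controls became 9 (2 higher, 7 lower) with normal scores and 8 with array weights. For 75th percentile scaling, the covariate, the subtracted 5th percentile and the methods' test, no share over all tested probes is given. Those counts can therefore not be set against the rest of the array. The cause of these moves was not tested.

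At 3 months 22 of the 26 probes were negative after spread scaling and 8 after quantile normalization. Among the genes chosen by the naming rule, the difference turned negative after spread scaling for Rps29 (-1.54), Rps27a (-1.17), Rpl15 (-0.81), Rps3a (-0.78), Rpl10a (-0.68), Rplp0 (-0.61), Rpsa (-0.52), Rps6 (-0.36), Rpl18 (-0.31), Rpl19 (-0.29) and Rpl29 (-0.088). After quantile normalization it was negative for Rps29 (-0.19), Rpl19 (-0.16), Rpl10a (-0.10), Rpl15 (-0.061), Rpsa (-0.050) and Rpl6 (-0.014). With the array spread as a covariate it was negative for Rpsa (-0.24), Rpl19 (-0.19), Rpl10a (-0.030) and Rpl6 (-0.022), without scaling for Rpl19 (-0.27), Rpl10a (-0.12) and Rpsa (-0.077), and with 75th percentile scaling for Rpl19 (-0.061). At 1 month without scaling Rps3a was at -0.090 and Rps23 at -0.047. Rpl6 at 3 months ranged from -0.19 to 1.22 with an array left out.

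With each array left out in turn, the counts ranged from 20 to 24 at 3 months, 0 to 0 at 1 month, 2 to 22 for the interaction and 18 to 23 between controls, and by rank from 2 to 2, 0 to 0, 0 to 1 and 4 to 6. The medians ranged from 0.67 to 0.94 at 3 months, 0.01 to 0.09 at 1 month and -0.995 to -0.70 between controls, and by rank from 0.01 to 0.17, -0.11 to -0.02 and -0.21 to -0.12. With the replicate block 22 probes were called at 3 months, 15 in the interaction, 21 between controls and 2 by rank at 3 months. Same-numbered arrays correlated at -0.24 to 0.25, so the numbers were not taken to pair the rats. Filter, floor, mean-variance trend and 1 probe per gene moved no count by over 1.5 times. The interaction has no value by the methods' test or in fits of 1 time point.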
